A study of Homo sapiens with 2 samples.

Results

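A set of 10 immediate early genes was followed: the AP-1 subunit genes FOS, FOSB, FOSL1, FOSL2, JUN, JUNB and JUND, and the genes EGR1, IER2 and DUSP1. They were chosen by symbol, and all 10 were found among the 28303 genes listed for both libraries. The measurement was poly(A)-selected RNA sequencing of HGC27 cells, a long-established line grown from a human gastric carcinoma and used here at passage 4 to 6. The cells of the overexpression library carried pcDNA3.1-linc01133, a plasmid expressing the long non-coding RNA LINC01133, and those of the control library carried the plasmid pcDNA3.1-control. Turbofect was the transfection reagent in both, the medium held serum, and harvest came 48 h after transfection. Each group held 1 library, so the spread between cultures is unknown and no difference has a replicate check.

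Immediate early genes are transcribed within minutes of a stimulus such as serum, growth factors or stress, from promoters that need no new protein synthesis, and their mRNAs are usually short-lived. The MAP kinases reach them through transcription factors already present, among them SRF with its ternary complex factor partners and proteins of the CREB and ATF group. AP-1 is a dimer of basic leucine zipper proteins. JUN proteins pair with one another or with FOS proteins, while FOS proteins need a JUN partner, and the dimers bind short sites in promoters and enhancers. EGR1 is a zinc finger transcription factor, IER2 is a nuclear protein encoded by an immediate early gene, and DUSP1 is a phosphatase that inactivates MAP kinases.

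Levels are the authors' values, read as FPKM (fragments scaled by exon length and by the counted total of the library). They rest on 16302581 counted fragments in the overexpression library and 15666629 in the control library. Intervals are exact, at 95%, and cover counting error only. LINC01133 itself had 74 fragments in the overexpression library and 4 in the control library, FPKM values of 1.44 with overexpression and 0.0809 in the control. Of 6 epithelial markers 5 were listed and all were under an FPKM of 1 in both libraries, with KRT18 listed at 0 and CDH1 at 1 fragment in the overexpression library and 2 in the control library. KRT8 had 22 fragments with overexpression and 34 in the control, CLDN4 38 with overexpression and 47 in the control, and EPCAM 12 with overexpression and 1 in the control. Of 6 gastric lineage markers 3 were listed, with summed FPKM values of 0.0364 in the overexpression library and 0.0227 in the control library, and with MUC5AC and TFF2 at 0. The 4 mesenchymal markers summed to 222 in the overexpression library and 205 in the control library, mostly VIM, with ZEB1 at 7.82 with overexpression and 3.06 in the control and CDH2 near 0. All 6 fibroblast markers were detected, with summed values of 343 with overexpression and 294 in the control. They went both ways, with POSTN at 98.8 with overexpression and 33.7 in the control, and COL1A1 at 162 with overexpression and 209 in the control. Blood markers summed to 0.124 in the overexpression library and 0.111 in the control library, and endothelial markers to 0.0236 with overexpression and 0.0553 in the control. The listed epithelial and gastric markers were thus low or at 0 in both libraries and give no positive check of the labelled origin. The part of sample composition in the results was not tested.

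Most of the immediate early genes were lower in the overexpression library, and FOS, EGR1 and JUN were lowest relative to the control library. A mean over both libraries of 1 FPKM or more was required for counts of genes, and 8 of the 10 passed. All 8 had a log2 ratio under 0, against 44.6% of all 11945 genes past that filter. FOSB and FOSL1 were under the filter, and FOS passed it with a level under 1 in the overexpression library. In FPKM itself 3 of the 8 were at least 2-fold lower, FOS, EGR1 and JUN, against 1.22% of all genes, and 0 were at least 2-fold higher, against 19.7%. Among genes whose mean lay between 1 and 10, the range in which these 3 lie, 1.74% were at least 2-fold lower. On the scale of FPKM + 1, which understates differences of low genes, 0 of the 8 were at least 2-fold lower, against 0.444% of all genes, and 0 at least 2-fold higher, against 11.9%. Those shares of all genes were 4.24% lower and 5.47% higher under upper quartile scaling, where 2 of the 8, FOS and JUN, were lower. FOS was closest to that threshold, with a log2 ratio of FPKM + 1 of -0.998. The median log2 ratio of FPKM + 1 over the 8 was -0.51, against 0.097 over all genes past the filter. The counting interval of the ratio lay under 1 for 6 of the 8, against 32.2% of the 10942 genes past the filter with whole fragment counts, and above 1 for 0, against 42.6%.

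**Figure D1:**
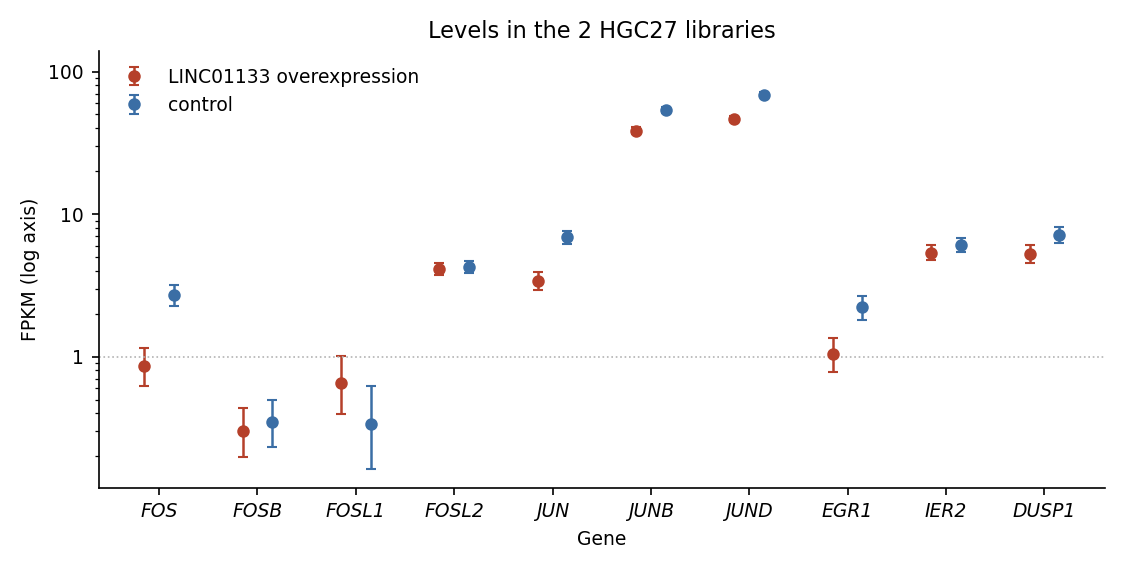
FPKM of each gene on a log axis, in the LINC01133 overexpression library (red, left of each pair) and the control library (blue, right), with 95% Poisson counting intervals; each point is 1 library and the dotted line marks an FPKM of 1. The intervals of the libraries are clearly apart for FOS, JUN, JUNB, JUND and EGR1, and nearly coincide for FOSL2, with 4.12 in the overexpression library and 4.26 in the control library.

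Of the FOS family, FOS differed most and FOSL2 least. FOS, the founding member of the family, had an FPKM of 0.852 (0.622 to 1.14) in the overexpression library and 2.70 (2.27 to 3.19) in the control library, from 45 fragments with overexpression and 137 in the control. The intervals do not overlap, and the ratio of overexpression over control was 0.316 (0.220 to 0.445). Of all genes past the filter, 0.368% had a ratio as low as that of FOS or lower. FOSL2, which encodes the FOS-related protein FRA-2, had 4.12 (3.76 to 4.51) in the overexpression library and 4.26 (3.89 to 4.66) in the control library, from 481 fragments with overexpression and 478 in the control. Its ratio was 0.967 (0.850 to 1.10), which holds 1. FOSB had 0.298 in the overexpression library and 0.345 in the control library, from 27 fragments with overexpression and 30 in the control, and a ratio of 0.865 (0.495 to 1.51). FOSL1, which encodes FRA-1, was the only gene of the 10 with a higher value in the overexpression library, 0.650 against 0.338 in the control library. It rested on 20 fragments with overexpression and 10 in the control, and its ratio of 1.92 (0.859 to 4.60) holds 1, so a difference of FOSB or FOSL1 was not detectable at this depth. In GRCh38 with GENCODE 29, FOS (ENSG00000170345) spans chr14:75278774-75282230 and FOSB (ENSG00000125740) chr19:45467995-45475179, both on the plus strand. FOSL1 (ENSG00000175592) spans chr11:65892049-65900573 on the minus strand and FOSL2 (ENSG00000075426) chr2:28392448-28417312 on the plus strand.

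JUN was lower to a larger degree than the more abundant JUNB and JUND. JUN, the transcription factor c-Jun, had an FPKM of 3.40 (2.94 to 3.91) in the overexpression library and 6.85 (6.18 to 7.58) in the control library, from 196 fragments with overexpression and 380 in the control. Its ratio was 0.496 (0.415 to 0.590), just past 2-fold, and the interval holds 0.5. JUNB, which can act in the place of JUN or against it, had 38.5 (36.3 to 40.8) in the overexpression library and 53.8 (51.1 to 56.6) in the control library, a ratio of 0.716 (0.663 to 0.774). JUND, the family member least dependent on stimulation, had 46.6 (44.2 to 49.1) in the overexpression library and 68.8 (65.8 to 71.9) in the control library, a ratio of 0.678 (0.633 to 0.726). The interval of the JUN ratio lies under those of JUNB and JUND, which overlap each other. Of the exon bases of JUNB, 14.2% are also exon bases of HOOK2 on the other strand, and the strand setting of the counting is not given in the sources used here, so reads of these genes cannot be told apart there. JUN (ENSG00000177606) spans chr1:58780788-58784327 on the minus strand, JUNB (ENSG00000171223) chr19:12791496-12793315 on the plus strand and JUND (ENSG00000130522) chr19:18279760-18281622 on the minus strand.

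**Figure D2:**
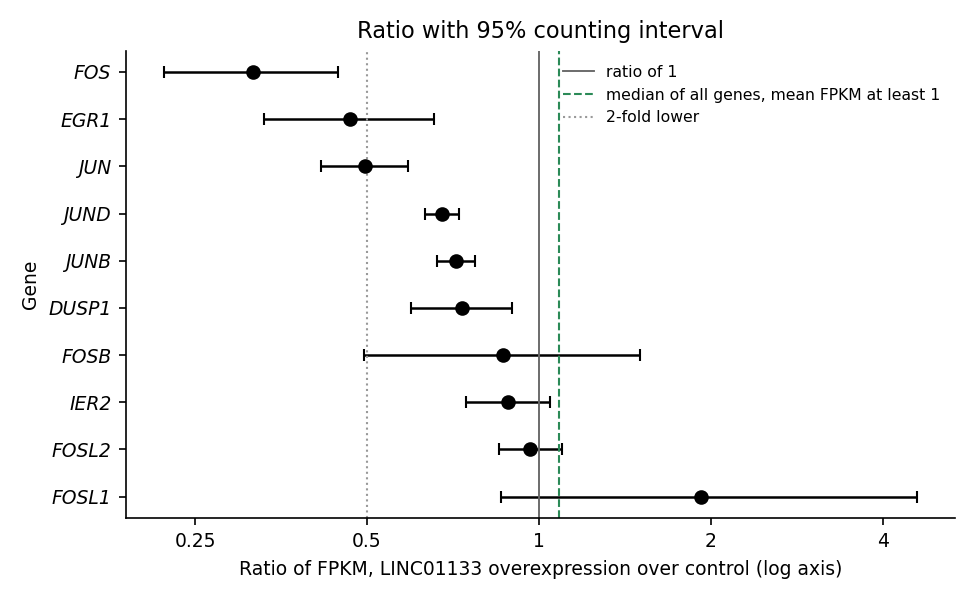
Ratio of FPKM, LINC01133 overexpression over control, on a log axis, with the 95% Clopper-Pearson counting interval; genes run from the lowest ratio at the top to the highest at the bottom, and lines mark a ratio of 1, a ratio 2-fold lower and the median of all genes past the filter (1.08). The intervals of FOS, EGR1, JUN, JUND, JUNB and DUSP1 lie under 1, and those of FOSB, IER2, FOSL2 and FOSL1 hold 1.

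Outside AP-1, EGR1 was lower by about as much as JUN, DUSP1 by less, and IER2 not beyond counting error. EGR1 had an FPKM of 1.04 (0.776 to 1.36) in the overexpression library and 2.22 (1.82 to 2.67) in the control library, from 53 fragments with overexpression and 109 in the control, and a ratio of 0.467 (0.330 to 0.655). As for JUN, the interval of the ratio holds an exact 2-fold difference. DUSP1 had 5.26 (4.50 to 6.10) in the overexpression library and 7.18 (6.27 to 8.17) in the control library, from 173 fragments with overexpression and 227 in the control. The intervals of the levels stop just short of each other, and the ratio was 0.732 (0.597 to 0.897). IER2, the nuclear protein gene, had 5.35 (4.73 to 6.03) in the overexpression library and 6.07 (5.39 to 6.80) in the control library, from 268 fragments with overexpression and 292 in the control, a ratio of 0.882 (0.744 to 1.04). An antisense gene, AC011446.2, shares 30.8% of the exon bases of IER2, so its level is uncertain in the same way as that of JUNB. EGR1 (ENSG00000120738) spans chr5:138465490-138469315 on the plus strand, DUSP1 (ENSG00000120129) chr5:172768090-172771195 on the minus strand and IER2 (ENSG00000160888) chr19:13150415-13154908 on the plus strand.

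Sequences are shown for the genes with the lowest ratios that hold a searched promoter motif, and for the AU-rich 3′ ends of FOS, FOSL2 and DUSP1, whose ratios differ widely. Promoter windows reach from 250 bases before to 50 after the RefSeq start (GRCh38.p14) and were found for 9 of the 10 genes. They were searched on both strands for the CArG box, which SRF binds, for TGACGTCA, the CREB and ATF site, for TGACTCA, the AP-1 site, and for TGACATCA, the variant known from the JUN promoter. Capitals mark the matches, which are descriptions of the letters and not evidence of binding.
EGR1 promoter, chr5:138465229-138465528, plus strand: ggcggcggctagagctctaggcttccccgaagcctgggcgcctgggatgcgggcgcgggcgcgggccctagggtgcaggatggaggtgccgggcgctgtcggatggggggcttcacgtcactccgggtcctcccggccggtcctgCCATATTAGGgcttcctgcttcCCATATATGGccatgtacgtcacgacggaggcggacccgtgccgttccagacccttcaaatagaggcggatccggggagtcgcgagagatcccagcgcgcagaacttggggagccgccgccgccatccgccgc
JUN promoter, chr1:58783998-58784297, minus strand: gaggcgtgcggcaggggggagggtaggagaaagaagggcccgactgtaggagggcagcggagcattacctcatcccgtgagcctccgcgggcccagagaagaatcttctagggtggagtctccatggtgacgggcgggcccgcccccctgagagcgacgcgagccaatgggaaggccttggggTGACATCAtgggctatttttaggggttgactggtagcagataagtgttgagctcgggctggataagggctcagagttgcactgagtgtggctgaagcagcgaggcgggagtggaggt
EGR1 holds CArG boxes at -105 to -96 and at -83 to -74 from the start, and its window was the only one of the 9 with that motif, which 1.29% of 35116 windows of the same length hold, and 1.15% of those of genes past the filter. JUN holds TGACATCA at -67 to -60, found in 2.61% of all windows and in 1.45% of the 12800 windows of genes past the filter. This motif was not among those first planned and was chosen because it is known from the JUN promoter. Its presence there was thus given by the choice and is not a finding. In GENCODE 29 the JUN transcript starts upstream of the JUN window. TGACGTCA was found in the windows of DUSP1 and JUND, against 1.85% of all windows and 2.99% of those of genes past the filter, and TGACTCA in that of FOSL2, against 4.95% and 3.08%. The windows of FOS, FOSB, JUNB and IER2 hold none of the 4 motifs. Sites further upstream and sites with other letters were not searched, so this does not show that these genes lack such sites.

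The AU-rich nonamer TTATTTATT, a motif of rapidly decaying mRNAs, was found in the 3′ UTR of 3 of the 10 genes and in 9.27% of 10302 coding genes past the filter. DUSP1 holds it at 2 places and FOS and FOSL2 at 1 each. A window of 30 bases is shown for 1 site of each gene, with the nonamer in capitals.
FOS, chr14:75282060-75282089, plus strand: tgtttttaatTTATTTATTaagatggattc
FOSL2, chr2:28416355-28416384, plus strand: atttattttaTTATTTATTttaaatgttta
DUSP1, chr5:172768642-172768671, minus strand: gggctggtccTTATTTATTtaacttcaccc
The ratio of FPKM was 0.316 for FOS, 0.967 for FOSL2 and 0.732 for DUSP1, and a part of the nonamer in these ratios was not tested. The shorter pentamer ATTTA was present in the 3′ UTR of 9 of the 10 genes, all but IER2, and in 73.2% of the coding genes past the filter. Its density was highest in FOS, at 6.20 per kilobase, and DUSP1, at 5.95, followed by JUNB at 4.00 and JUN at 2.33. The median over the 10 genes was 1.68 per kilobase, against 1.66 over the coding genes past the filter. The genes are also built compactly. JUN, JUNB, JUND and IER2 have 1 exon in the transcript used, as do 2.05% of the coding genes past the filter, and the other 6 have 2 to 4 exons, against a median of 9. For IER2 this holds of that transcript only, since its exons over all transcripts cover 3072 bases of a longer gene span.

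The order of levels within each library was led by JUND and JUNB, which were apart from each other and from all the rest. In the overexpression library they were followed by IER2, DUSP1, FOSL2 and JUN, in which each gene's interval overlaps that of the next. EGR1, FOS, FOSL1 and FOSB came last, again with each interval overlapping the next. In the control library DUSP1, JUN and IER2 followed JUNB, with overlapping neighbours, then FOSL2, which was apart from both its neighbours, then FOS and EGR1, which overlap, and FOSB and FOSL1, which overlap. JUN thus held the sixth place in the overexpression library and the fourth in the control library.

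Summed over each family, the JUN genes had an FPKM of 88.5 in the overexpression library and 129 in the control library, a ratio of 0.684, and the FOS genes 5.92 with overexpression and 7.65 in the control, a ratio of 0.775. JUN family transcripts were 14.9 times as abundant as FOS family transcripts in the overexpression library and 16.9 times in the control library. The makeup of the JUN sum was similar in both. JUND made up 52.7% of it in the overexpression library and 53.1% in the control library, JUNB 43.5% with overexpression and 41.6% in the control, and JUN 3.84% with overexpression and 5.29% in the control. The makeup of the FOS sum differed more. FOS made up 14.4% of it in the overexpression library and 35.3% in the control library, and FOSL2 69.6% with overexpression and 55.7% in the control. FOSL1 made up 10.98% with overexpression and 4.42% in the control, from the few fragments given above, and FOSB 5.04% with overexpression and 4.51% in the control.

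**Figure D3:**
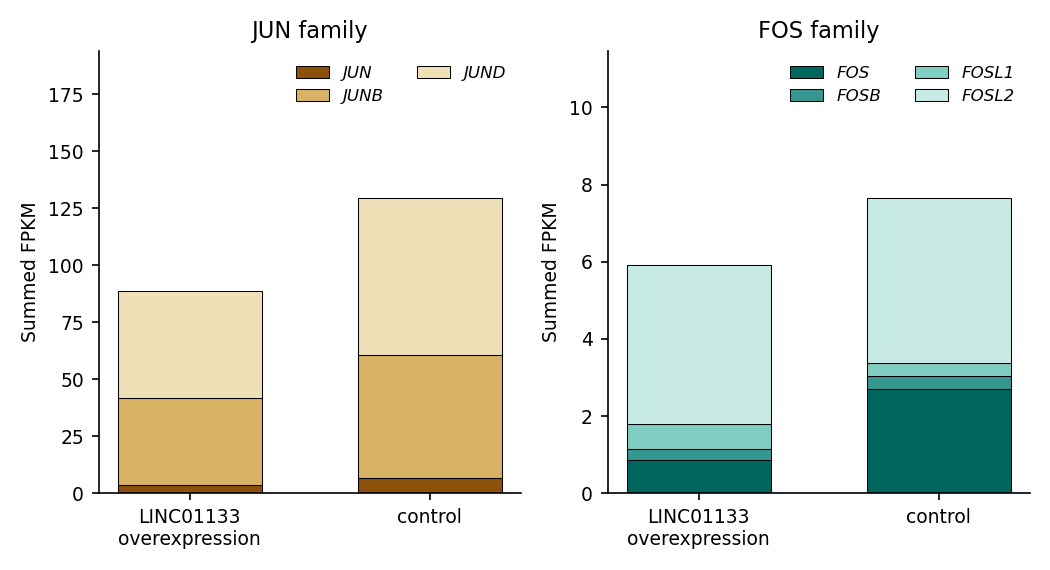
Summed FPKM of the JUN family (left panel) and FOS family (right panel), in the LINC01133 overexpression library (left bar) and the control library (right bar), stacked by gene; the panels have separate vertical axes. FOS is the part of the FOS family sum that differs most, at 14.4% of the sum in the overexpression library and 35.3% in the control library.

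The libraries also differed by base composition, and all 10 genes have transcripts richer in GC than the median gene. Their GC contents ran from 52.6% in FOS to 69.7% in JUND, with a median of 57.2%, against 49.03% over 11913 genes past the filter. Across those genes, AT-rich transcripts were higher and GC-rich transcripts lower in the overexpression library. With genes split by GC content into 10 bins of equal size, FOS, FOSL2, DUSP1 and EGR1 fall in bin 7, where the median log2 ratio of FPKM + 1 was -0.18 and 2.35% of genes were at least 2-fold lower in FPKM. JUN falls in bin 8, with a median of -0.30, IER2 in bin 9, with -0.37, and JUNB and JUND in bin 10, the richest in GC, with -0.39. The lower quartile was -0.35 in bin 7, -0.45 in bin 8 and -0.547 in bin 10. The log2 ratios of FOS (-0.998), EGR1 (-0.66) and DUSP1 (-0.39) lie under the lower quartile of their bin, as do JUN (-0.84) and, by a narrow margin, JUND (-0.552), while JUNB (-0.47) lies between its bin's lower quartile and median. FOSL2 (-0.039) and IER2 (-0.15) lie above the median of their bin.

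With lowess trends on GC content and transcript length subtracted, the log2 ratios of FOS, JUN and EGR1 rose but stayed under 0. The median of all genes was added back, so 0.080 and not 0 marks the typical gene on this scale. DUSP1, JUND and JUNB lay under that value, and FOSL2 and IER2 above it. The log2 ratio of FPKM + 1 was then -0.74 for FOS, -0.48 for JUN and -0.34 for EGR1. It was -0.018 for DUSP1, -0.014 for JUND and 0.072 for JUNB, and 0.14 for FOSL2 and 0.31 for IER2. The median over the 8 genes was -0.016, against 0.080 over all genes past the filter, and 5 of the 8 were under 0, against 37.9% of all genes. After the subtraction 1.70% of all genes had a value as low as that of FOS or lower, 4.16% as low as that of JUN and 7.76% as low as that of EGR1. With no pseudocount, an alternative added after the data were seen, FOS was at -1.36, EGR1 at -0.72 and JUN at -0.60, so that FOS alone of the 8 was at least 2-fold lower, against 1.95% of all genes, and 0 were at least 2-fold higher, against 3.55%. The part of base composition in the differences was described by these values and was not otherwise tested.

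**Figure D4:**
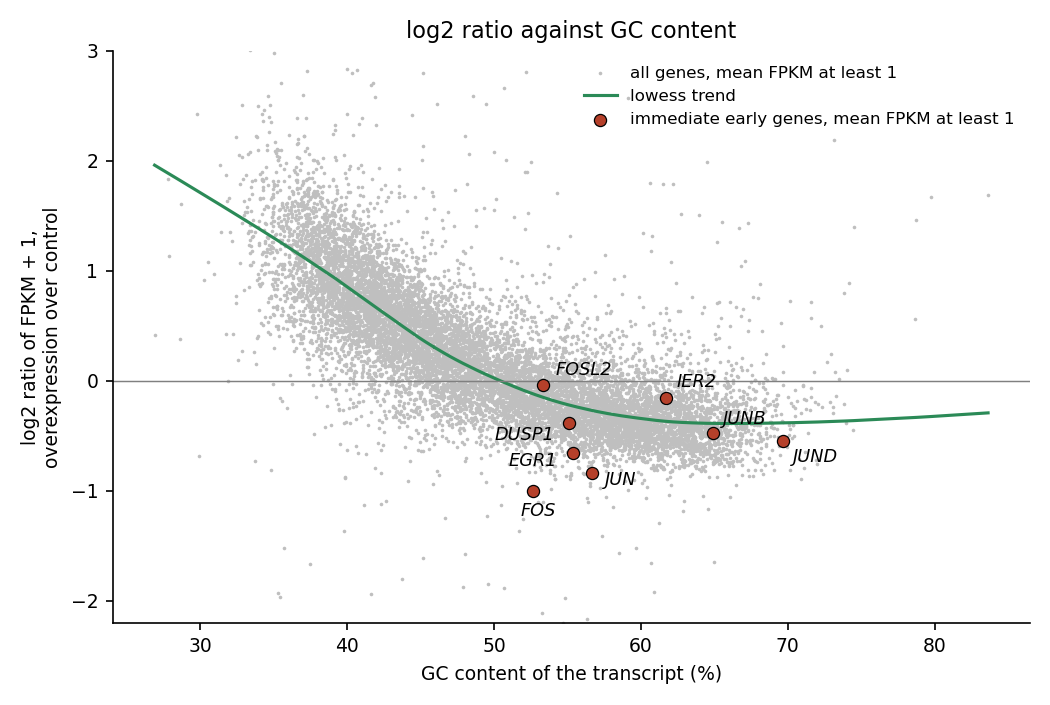
log2 ratio of FPKM + 1, LINC01133 overexpression over control, against the GC content of the transcript for all genes past the filter (grey; 13 lie outside the vertical range), with the lowess trend (green) and the 8 immediate early genes past the filter (red). The log2 ratio minus the trend is -0.88 for FOS, -0.57 for JUN and -0.43 for EGR1, between -0.17 and -0.084 for JUND, DUSP1 and JUNB, 0.11 for FOSL2 and 0.21 for IER2.

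Members of related lists lay on both sides of 0. Values are FPKM, and the lists hold only genes that passed the same filter. Of the 15 other immediate early genes that passed the filter, 0 reached 2-fold in FPKM, against 1.22% of all genes lower and 19.7% higher. TIPARP (ratio 1.996), ARC (0.507) and IER3 (0.533) fell short of it, with counting intervals that hold a 2-fold difference. The interval lay under 1 for 6 and above 1 for 5, against 32.2% and 42.6% of all genes with whole fragment counts. The median log2 ratio of FPKM + 1 was -0.045. IER3, a stress-inducible survival gene that an antisense gene overlaps, had 10.6 in the overexpression library and 19.9 in the control library, a log2 ratio of -0.85. ARC, a gene best known from neurons, had 0.964 with overexpression and 1.90 in the control (-0.56), and PHLDA2 39.8 with overexpression and 54.1 in the control (-0.43), while TIPARP, a mono-ADP-ribosyltransferase, had 8.86 with overexpression and 4.44 in the control (0.86).

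A list of other basic leucine zipper genes was drawn up as dimer partners of AP-1, although not all of them pair with JUN or FOS proteins. Of the 12 that passed the filter, 2 were 2-fold or more higher in FPKM, against 19.7% of all genes. At least 2-fold lower was 1, against 1.22%, and the median log2 ratio was -0.14. CREB1, a cyclic AMP-responsive activator, had 5.30 in the overexpression library and 1.53 in the control library, and ATF2, a JUN partner, 10.6 with overexpression and 3.82 in the control. Both transcripts are AT-rich. Subtracting the trends took the log2 ratio of CREB1, 1.32, to 0.13 and that of ATF2, 1.27, to 0.20. ATF6, a sensor of the unfolded protein response, had 9.83 with overexpression and 7.21 in the control. ATF5 had 3.41 with overexpression and 6.94 in the control, a log2 ratio of -0.85 that was -0.36 with the trends subtracted, and it shares exon bases with other genes.

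Of 6 genes for SRF and its cofactors, 3 were at least 2-fold higher in FPKM and 0 lower, against 19.7% and 1.22% of all genes. The ternary complex factor ELK4 had 4.10 in the overexpression library and 1.17 in the control library, ELK3 1.52 with overexpression and 0.591 in the control, and the SRF coactivator gene MRTFB 3.13 with overexpression and 1.56 in the control. ELK3 passed the filter only through its level in the overexpression library, so its place among the 3 depends on the filter. MRTFA had 6.22 with overexpression and 9.16 in the control, and SRF itself 13.3 with overexpression and 17.1 in the control. The transcripts of ELK4, ELK3 and MRTFB are AT-rich, and with the trends subtracted their log2 ratios were 0.26, 0.13 and 0.26, where without it they were 1.23, 0.66 and 0.69. The list's median log2 ratio of 0.16 was 0.00055 under the trimmed mean of M values scaling and -0.16 under upper quartile scaling.

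Of 18 MAP kinases and kinases acting with them, 2 were at least 2-fold higher in FPKM, against 19.7% of all genes. They were RPS6KA3 (5.48 in the overexpression library and 2.28 in the control library) and the JNK gene MAPK8 (3.76 with overexpression and 1.76 in the control). Subtracting the trends took the log2 ratio of RPS6KA3, 0.98, to 0.15 and turned that of MAPK8, 0.78, to -0.27. None of the 18 was at least 2-fold lower, against 1.22% of all genes. MAP2K2, an upstream kinase of ERK, had 48.0 with overexpression and 78.1 in the control, and the ERK gene MAPK3 23.7 with overexpression and 35.8 in the control. The median log2 ratio was -0.14. Of 9 dual-specificity phosphatases and Sprouty-related genes, 1 was at least 2-fold higher and 0 lower in FPKM, against 19.7% and 1.22% of all genes. It was SPRED1, an inhibitor of RAS signalling, with 3.90 in the overexpression library and 1.63 in the control library. Its log2 ratio of 0.90 was -0.033 with the trends subtracted. DUSP9 had 25.1 with overexpression and 36.6 in the control, DUSP14 13.8 with overexpression and 17.1 in the control, and DUSP8 1.61 with overexpression and 2.18 in the control, and the median was -0.23.

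Of 11 genes reported as AP-1 targets, 1 was at least 2-fold higher and 0 lower in FPKM, against 19.7% and 1.22% of all genes. The median log2 ratio was -0.10. The integrin gene ITGAV had 13.4 in the overexpression library and 3.68 in the control library, and ANXA1 26.5 with overexpression and 16.4 in the control. TIMP1, an inhibitor of metalloproteinases, had 25.3 with overexpression and 34.2 in the control, and the haem oxygenase gene HMOX1 11.8 with overexpression and 15.8 in the control. Subtracting the trends took the log2 ratio of TIMP1, -0.42, to 0.074 and that of HMOX1, -0.40, to 0.061. Both lay just under the median of all genes, 0.080. That of ANXA1, 0.66, went to -0.12 and that of ITGAV, 1.62, to 0.63. Of 8 factors that bind AU-rich elements, 1 was at least 2-fold higher and 0 lower in FPKM, set against the same shares of all genes. It was TIA1, with 18.0 in the overexpression library and 5.50 in the control library. Its log2 ratio of 1.55 was 0.44 with the trends subtracted. TIAL1 had 9.77 with overexpression and 6.99 in the control, KHSRP 155 with overexpression and 190 in the control, and ZFP36L2 21.0 with overexpression and 16.8 in the control. The trends turned the log2 ratio of TIAL1, 0.43, to -0.45 and that of KHSRP, -0.29, to 0.14. The list's median of 0.11 was -0.088 under the trimmed mean of M values scaling. With the trends subtracted, the medians of the 7 related lists ran from 0.0071 to 0.11.

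**Figure D5:**
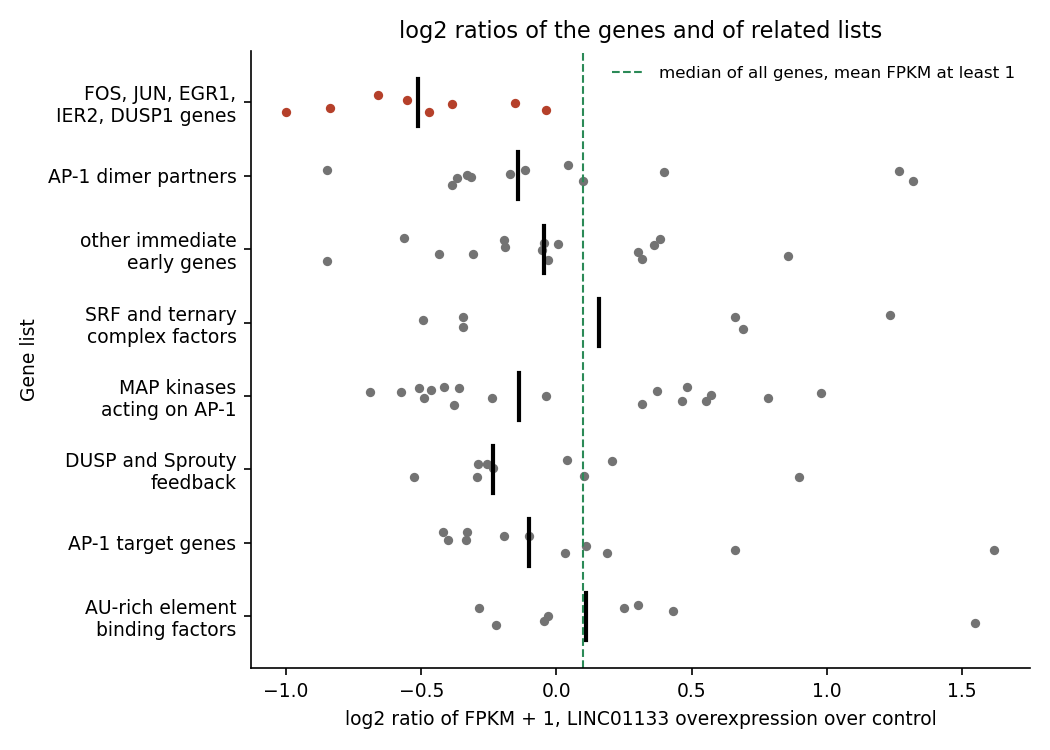
log2 ratio of FPKM + 1, LINC01133 overexpression over control, of the immediate early genes described here (red) and of the members of 7 related lists (grey) past the filter; black bars are list medians and the dashed line the median of all genes (0.097). The 8 red points lie between -0.998 and -0.039, with a median of -0.51, and each grey list has points on both sides of 0. The list labelled AP-1 dimer partners holds other basic leucine zipper genes, not all of them partners of JUN or FOS proteins.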

How the data were processed

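The authors deposited 1 value per gene for each of the 2 libraries. The unit is not named in the labels. The deposited values were read as FPKM because, multiplied by merged exon length in GENCODE 29, they are whole multiples of 1 step per library (tolerance 0.02 fragments) for 94.4% of genes in the overexpression and 94.5% in the control library. This step gave the depth and the fragments of each gene. The submitters' processing notes name GRCh38 as the build and the tools HTSeq (0.6.0), HISAT2 (2.1.0) and Bowtie2 (2.2.3). What each tool did, the annotation release and the strand setting are not given in the sources used here.

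Ratios are overexpression over control. Log2 ratios use FPKM + 1, and a mean FPKM of at least 1 was required for counts of genes. Level intervals are exact Poisson and ratio intervals Clopper-Pearson (SciPy 1.17.1), and amplified fragments are not independent molecules. With 1 library per group no p-value or SD was computed. Trends on GC content and length, taken from the longest transcript of a gene that codes for protein and has a 3′ UTR, or else from its longest transcript, were fitted by lowess (statsmodels 0.14.6, span 0.3) and subtracted. After each subtraction the median over the fitted genes was added back, so the typical gene lies at 0.080 and not at 0. The calculations were tested on simulated data. Promoters are from RefSeq and 3′ UTRs from GENCODE 29.

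The members and lists were chosen with earlier results of these data known. Of each related list, up to 4 members with the largest absolute log2 ratio are named, with SRF added after its value was seen. Alternatives were other scalings, pseudocounts, filters and fold thresholds, the mean, and subtraction of the trends.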

Additional observations from a re-analysis of the deposited data

How the results depend on the processing

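No paired analysis was possible because overexpression and control had 1 library each, and for the same reason no library could be left out. The trimmed mean of M values, the median of ratios and upper quartile scaling shifted all log2 ratios of FPKM by -0.21, -0.21 and -0.42. The 0 genes at least 2-fold lower in FPKM + 1 became 2 under each of these (FOS and JUN), against 0.988%, 0.929% and 4.24% of all genes. It became 2 with a pseudocount of 0.1 (FOS and EGR1, against 1.06%), 3 with no pseudocount (against 1.22%) and 3 at 1.5-fold (against 5.29%), FOS, JUN and EGR1 in both. Of settings added after the data were seen, with the trends subtracted and no pseudocount the number was 1 (FOS, against 1.95%), while trimmed mean of M values scaling with no pseudocount gave 3 (against 2.61%). The number at least 2-fold higher was 0 under all alternatives run.

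The median log2 ratio of -0.51 became -0.72 by the trimmed mean of M values, -0.71 by the median of ratios, -0.90 by the upper quartile, -0.74 by the trimmed mean of M values with no pseudocount, -0.016 with the trends subtracted, and 0.029 with the trends subtracted and no pseudocount. The cause was not tested. Without a filter it was -0.43 over 10 genes, at a mean FPKM of at least 5 it was -0.47 over 5 genes, and the mean was -0.51. FOS, JUN, EGR1 and DUSP1 were under 0 and FOSL1 above 0 in all 8 alternatives. FOSB, FOSL2, JUNB and IER2 moved above 0 in the 2 that subtract the trends, and JUND in 1 of them. In these 2 the median of all genes was itself above 0, at 0.080 and, with no pseudocount, 0.089. FOS rests on 45 fragments with overexpression and 137 in the control, and FOSL1 on 20 with overexpression and 10 in the control, which limits their precision.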

Other observations

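With 2 libraries the pattern of a gene is a single ratio. Among the related lists, the gene with the log2 ratio of FPKM + 1 nearest to that of FOS (-0.998) was ATF5 at -0.85, with an FPKM of 3.41 in the overexpression library and 6.94 in the control library. Nearest to JUN (-0.84) was IER3 at -0.85, with 10.6 in the overexpression library and 19.9 in the control library, and nearest to EGR1 (-0.66) was MAP2K2 at -0.69, with 48.0 in the overexpression library and 78.1 in the control library. These matches depend on the scale. In FPKM itself the ratios were 0.316 for FOS and 0.491 for ATF5, and 0.496 for JUN and 0.533 for IER3. They were 0.467 for EGR1 and 0.614 for MAP2K2, so ATF5 was closer to EGR1 than MAP2K2 was.

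Coding genes with 1 exon in the transcript used, as for JUN, JUNB, JUND and IER2, had a median log2 ratio of -0.040 over 211 genes past the filter. The median was 0.070 over all coding genes past it. Coding genes whose 3′ UTR holds TTATTTATT had a median of 0.49, or 0.064 with the trends subtracted, against 0.070 and 0.073 over all coding genes past the filter.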
